A study of Mus musculus with 2 samples.

Results

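The PDGF and angiopoietin ligands and receptors are 10 of the 55357 genes in the tables, chosen by their symbols alone: the PDGF ligands Pdgfa, Pdgfb, Pdgfc and Pdgfd, the PDGF receptors Pdgfra and Pdgfrb, the angiopoietins Angpt1 and Angpt2, and the Tie receptors Tek and Tie1. They were read in 2 single-cell RNA libraries of the C57BL/6 mouse heart. The TAC library came from male mice whose aortic arch was ligated (transverse aortic constriction, a surgical model of pressure overload) at 8 weeks of age, with hearts taken after 6 weeks of constriction. The Sham library is labelled as sham operated, that is, the same surgery without the constriction, while the study's design text calls these mice uninjured; the study's text states that male mice were used throughout, and the age of the Sham mice was not given in the sources used here. Each library pooled the cells of 3 to 5 hearts, so that each condition has 1 library and no value can be assigned to a mouse. All ratios between the conditions below therefore compare these 2 libraries, with no replicate check, and all intervals are exact 95% intervals that cover counting error only.

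PDGF ligands are secreted dimers that bind receptor tyrosine kinases. PDGF-B released by endothelial cells is known to recruit and hold pericytes, which carry the receptor Pdgfrb, whereas Pdgfra is the classical receptor of fibroblasts and PDGF-A and PDGF-C act through it. PDGF-C and PDGF-D are secreted in a latent form and need proteolytic cleavage to bind. Angiopoietin 1 is the activating ligand of the receptor Tek (also called Tie2) and stabilises vessels, angiopoietin 2 is a context-dependent antagonist stored in endothelial cells, and Tie1 is a related receptor with no well-established ligand of its own that modulates Tek. In the heart these routes link endothelium, pericytes, fibroblasts and cardiomyocytes.

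The Sham library held 9935 cell barcodes and 28146691 unique molecular identifiers (UMIs, each standing for 1 captured RNA molecule), and the TAC library held 9932 barcodes and 29108986 UMIs, with medians of 1964 and 2143 UMIs per barcode. After removal of called doublets 9475 and 9452 cells remained, and 32 barcode sequences occurred in both libraries. The median mitochondrial share of UMIs in these cells was 0.459% in Sham and 0.287% in TAC, and in cardiomyocytes 0.234% and 0.128%. What set these shares was not tested. Clustering without the members gave, in Sham and TAC, 1901 and 2249 endothelial, 1061 and 1042 pericyte, 2293 and 2125 fibroblast, 2511 and 2395 cardiomyocyte and 1412 and 1341 macrophage cells, beside small groups of lymphatic endothelial (85 and 110), smooth muscle (51 and 43), epicardial or mesothelial (20 and 27), Schwann, T and B cells. Of the genes known to rise under pressure overload, Myh7 was higher in the TAC library and the others read here were lower. In cardiomyocytes the TAC to Sham ratio was 0.758 (0.611 to 0.937) for Nppa, 0.772 (0.675 to 0.883) for Nppb, 0.356 (0.295 to 0.427) for Acta1 and 1.36 (1.32 to 1.40) for Myh7, and in fibroblasts it was 0.725 (0.631 to 0.831) for Postn. "TAC" and "Sham" below mean the libraries so labelled. The 9 cardiomyocyte markers summed to between 1958 and 5023 UMIs per 1000000 in endothelial cells, pericytes, fibroblasts and macrophages of both libraries, 3.11% to 6.18% of their cardiomyocyte level, so cardiomyocyte RNA was read in each type. Their TAC to Sham ratios there were 0.617 to 0.739, beside 0.775 in cardiomyocytes themselves.

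Values below are levels, the UMIs of a gene per 1000000 UMIs of that cell type in that library. The kit reads RNA 3′ ends, and levels are set beside each other for 1 gene across cells, not between genes. The positions given are those of GENCODE M21 on GRCm38, all of protein-coding genes.

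Promoter sequences are shown for Tek and Pdgfd, the receptor and the ligand whose spread over cell types the results below turn on. They are the 250 bases before the RefSeq start of each gene (GRCm38.p6), 5′ to 3′ on the gene's strand, with the GGAA core of ETS factor sites, a motif class known from endothelial genes, and its reverse complement TTCC in capitals.
Tek, chr4:94739039-94739288, plus strand: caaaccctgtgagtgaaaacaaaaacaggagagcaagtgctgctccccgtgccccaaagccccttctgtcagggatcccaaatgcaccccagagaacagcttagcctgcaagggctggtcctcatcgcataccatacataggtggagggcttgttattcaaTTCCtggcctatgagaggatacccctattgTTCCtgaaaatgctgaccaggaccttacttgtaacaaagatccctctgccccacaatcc
Pdgfd, chr9:6168236-6168485, plus strand: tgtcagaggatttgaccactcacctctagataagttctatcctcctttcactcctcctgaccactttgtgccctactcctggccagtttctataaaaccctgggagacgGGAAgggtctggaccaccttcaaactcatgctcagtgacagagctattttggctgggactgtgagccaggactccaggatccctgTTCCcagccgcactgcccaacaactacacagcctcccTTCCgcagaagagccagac
No exon of the GENCODE M21 annotation overlaps either window. The bases just after the RefSeq start were found in a GENCODE M21 transcript for Tek but not for Pdgfd, whose GENCODE gene starts later, at 6168584. The 4-base core occurred 2 times before Tek and 3 times before Pdgfd, and 93.4% of 32851 RefSeq windows of this length hold at least 1 core on either strand, with a median of 3. The Pdgfd window also holds TATAAA, which 12.4% of windows hold on either strand. RefSeq windows were kept here for 6 of the 10 genes.

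**Figure D1:**
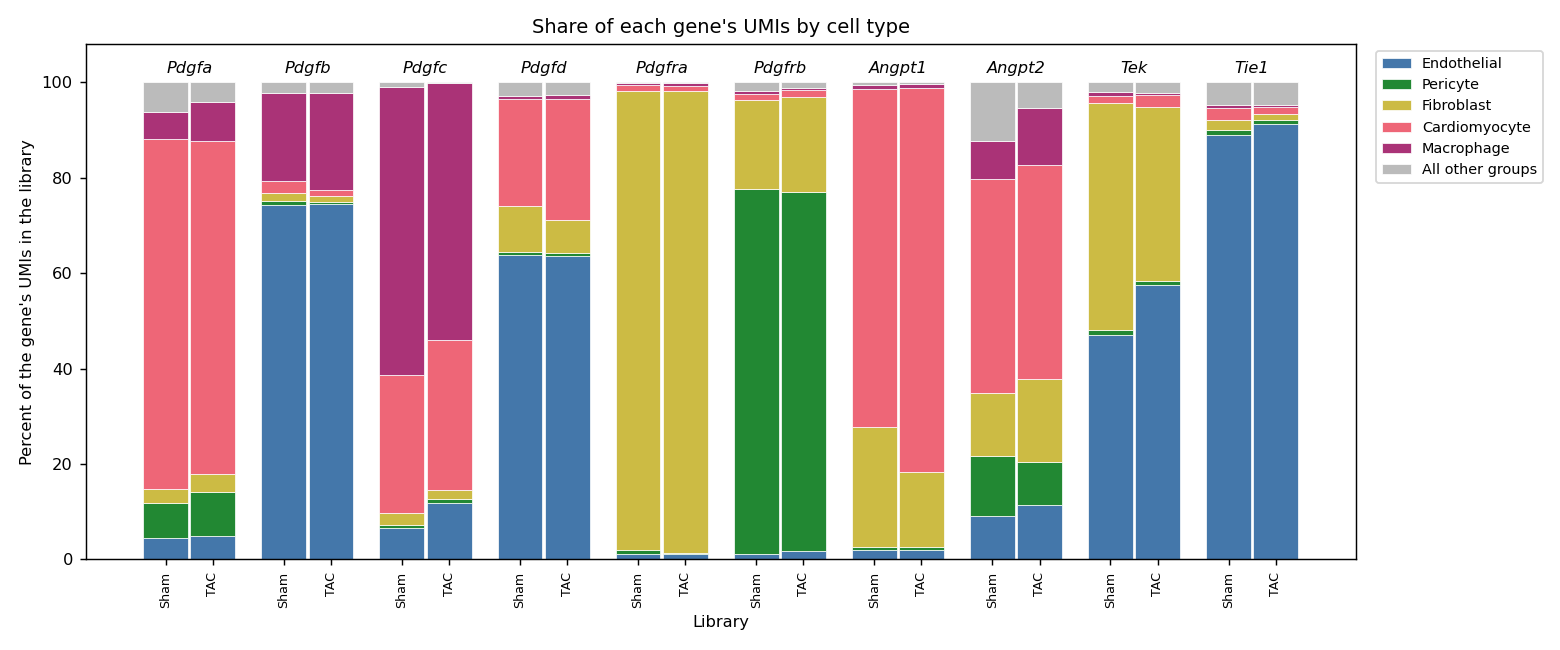
Percent of each gene's UMIs (vertical axis) found in each cell type (colours), with a Sham and a TAC column for each of the 10 genes. Pdgfra, Pdgfrb and Tie1 came mainly from fibroblasts, pericytes and endothelial cells in that order, while Tek was divided between endothelial cells (47.0% in Sham, 57.5% in TAC) and fibroblasts (47.5% and 36.5%).

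All the ligands and receptors other than Tek and Angpt2 had a main source among the captured cells, and it was the same in both libraries. Cardiomyocytes held 44.8% and 44.9% of the Angpt2 UMIs. They also held 13486316 of the 25943020 UMIs of all genes in Sham cells and 13118214 of 26640422 in TAC cells. Endothelial cells held 74.2% (71.5 to 76.9) of the Pdgfb UMIs in Sham and 74.4% (71.8 to 76.8) in TAC, and 63.8% and 63.6% of those of Pdgfd. Cardiomyocytes held 73.3% and 69.8% of Pdgfa and 70.7% and 80.4% of Angpt1. Macrophages held 60.4% and 53.8% of Pdgfc. Fibroblasts held 96.2% and 96.8% of Pdgfra, pericytes 76.5% and 75.2% of Pdgfrb, and endothelial cells 89.0% and 91.2% of Tie1. These shares count the cells that were captured and their depth, and cardiomyocytes carried the most UMIs per cell, with medians of 4510 and 4917. Several of the shares were much lower under alternative processing, as given in the section on processing.

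Between the libraries a gene was called higher or lower in a cell type when its level differed by at least 1.5-fold and the interval of the ratio excluded 1, for genes with at least 20 UMIs in that type over both libraries. Of the 50 pairs of a gene and 1 of the 5 large cell types, 47 had enough UMIs, and 7 were called higher and 1 lower in TAC. Among endothelial cells 2 of 10 were called higher and 0 lower, against 8.23% and 4.83% of 13033 genes. Of 8 in pericytes 0 were called higher and 1 lower, against 6.12% and 4.94% of 11379 genes. In fibroblasts 1 of 10 was called higher and 0 lower, against 9.99% and 3.75% of 15087 genes. For cardiomyocytes 3 of 10 were called higher and 0 lower, against 12.1% and 5.91% of 16031 genes. In macrophages 1 of 9 was called higher and 0 lower, against 8.07% and 7.13% of 12339 genes. The median log2 ratio of the members over the 47 pairs was 0.03, and the medians of all genes in the 5 types lay between 0.004 and 0.047. Angiopoietins made up 5 of the 7 pairs called higher, 4 of them Angpt2.

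**Figure D2:**
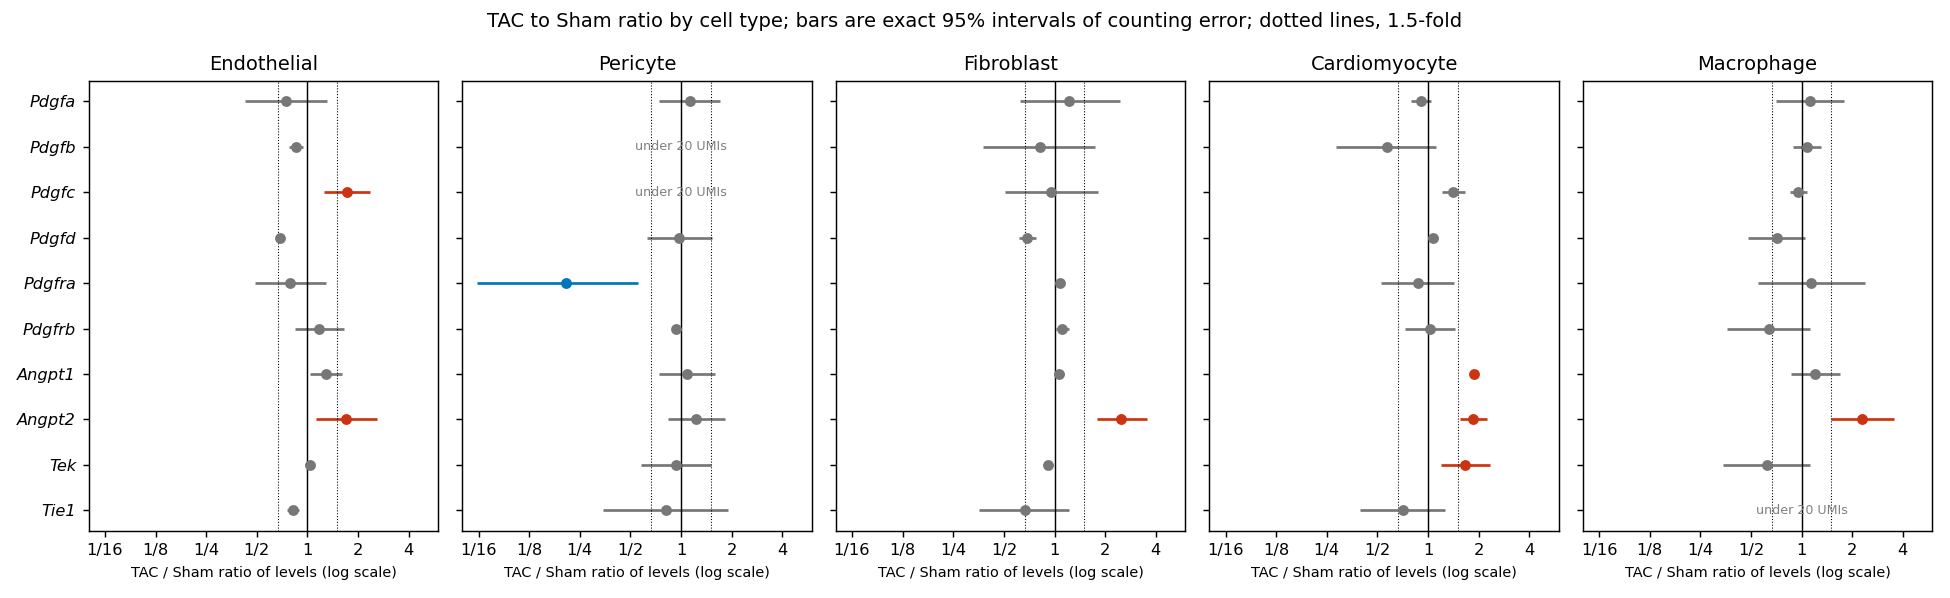
Ratio of the TAC to the Sham level (horizontal axis, log scale) for the 10 genes in 5 cell types, with exact 95% intervals of counting error and dotted lines at 1.5-fold. Red points were called higher and the blue point lower; Angpt2 lay above 1 in all 5 types and Pdgfd in endothelial cells and fibroblasts just missed the 1.5-fold line.

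Pdgfa encodes the PDGF-A chain, which binds the receptor encoded by Pdgfra, and lies at chr5:138976014-138997370 on the minus strand. Among the 7 cell types plotted below its level was highest in smooth muscle, at 148 (89.3 to 232, 19 UMIs) in Sham and 123 (63.5 to 215, 12 UMIs) in TAC, 4.44 times (2.65 to 7.01) and 4.06 times (2.08 to 7.18) that of cardiomyocytes. Cardiomyocytes followed at 33.4 and 30.3, and pericytes at 24.6 and 27.6, a pair of neighbours whose ratio in TAC, 1.10 (0.821 to 1.49), was within counting error. Fibroblasts, the main cells with its receptor, had the lowest level of the large types, 3.31 and 4.05. The 17 Schwann cells of Sham held 9 UMIs (294) and the 16 of TAC held 3 (104). None of the 5 large types was called changed for Pdgfa, and the ratio in cardiomyocytes was 0.905.

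Pdgfb encodes PDGF-B, the ligand that endothelial cells present to pericytes (chr15:79995874-80014977, minus strand). Endothelial cells stood at 322 (300 to 345) in Sham and 275 (257 to 293) in TAC, a ratio of 0.853 (0.774 to 0.941). Macrophages were next at 87.4 (75.5 to 101) and 93.8 (82.4 to 106), against 4.37 and 3.13 in pericytes, 3.31 and 2.70 in fibroblasts and 2.002 and 1.14 in cardiomyocytes. The macrophage level was 20.01 times (9.96 to 47.0) and 30.02 times (13.6 to 82.6) the pericyte level. Within the endothelium the RNA was uneven: arterial cells had 511 and 383, venous cells 119 and 144, and endocardial cells, which line the chambers and have no pericytes, 9.05 (3 UMIs) and 25.7 (17 UMIs). The other endothelial cells, which join 6 subclusters without a name and a subcluster of 62 and 35 cells that holds capillary markers but is led by Rgs5 and ribosomal genes, had 421 and 409, with a ratio of 0.973 (0.873 to 1.08). Of these, a subcluster of 444 and 318 cells was led by the cardiomyocyte gene Tnnt2. Endocardial and venous cells made up 10.0% and 12.8% of the endothelial cells in Sham and 13.3% and 17.5% in TAC, and with 1 mix of the 10 endothelial subclusters applied to both libraries, an alternative chosen after seeing the data, the ratio of Pdgfb was 0.979.

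Pdgfc encodes PDGF-C, a latent ligand of the receptor encoded by Pdgfra (chr3:81036416-81214040, plus strand). Macrophages had the highest level of the large types, 249 (229 to 271) in Sham and 238 (220 to 258) in TAC, and 267 of 1412 and 266 of 1341 macrophages held a UMI. This was 10.1 times (7.69 to 13.4) and 5.61 times (4.66 to 6.81) the endothelial level. Endothelial Pdgfc was called higher, from 24.8 (60 UMIs) to 42.5 (137 UMIs), with a ratio of 1.71 (1.25 to 2.36). Of these UMIs 50 in Sham and 125 in TAC lay in endocardial cells, where the level was 151 (112 to 199) and 189 (157 to 225), a ratio of 1.25 (0.895 to 1.77), and in the other endothelial cells, those not arterial, venous or endocardial, the level was 5.16 and 4.17. With 1 mix of subclusters in both libraries the endothelial ratio was 1.23, short of the fold needed for a call. In cardiomyocytes Pdgfc stood at 19.6 (17.3 to 22.1) and 27.7 (24.9 to 30.7), a ratio of 1.41 (1.20 to 1.66) that missed the fold. The antisense gene Gm16000 overlaps 3030 bases of Pdgfc on the other strand and stood at 5.89 and 25.8 in macrophages; whether the counting used strand is not given in the sources used here.

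Pdgfd encodes PDGF-D, a latent ligand of the receptor encoded by Pdgfrb (chr9:6168584-6378850, plus strand), and was highest in endothelial cells. These stood at 2009 (1953 to 2066) in Sham and 1379.7 (1339 to 1421) in TAC. Smooth muscle had 664 and 697, lymphatic endothelium 421 and 207, and the few epicardial or mesothelial cells 302 (12 UMIs) and 943 (59 UMIs). The endothelial ratio was 0.687 (0.659 to 0.715), outside counting error but short of the 1.5-fold needed for a call. It was below 1 in all 10 endothelial subclusters, from 0.457 to 0.911, and the interval lay below 1 in 9 of them. Arterial cells went from 4611 to 3219 (0.698), venous cells from 1640.3 to 1047 (0.638), endocardial cells from 374 to 198 (0.529) and the other endothelial cells from 2201 to 1728 (0.785). Arterial cells thus had 2.81 times (2.52 to 3.14) and 3.07 times (2.77 to 3.42) the venous level, and endocardial cells 0.170 times and 0.115 times that of the other endothelial cells. With 1 mix of subclusters the endothelial ratio was 0.726. Fibroblasts also stood lower, at 135 (125.2 to 145) and 93.0 (84.9 to 101.7), a ratio of 0.690 (0.614 to 0.775), but with 1 mix of the 13 fibroblast subclusters that ratio was 0.884, and 8 of 10 subclusters with at least 20 UMIs lay below 1, 1 of them outside counting error. Cardiomyocytes had 126 and 135 (1.07, 1.001 to 1.145). The gene Ddi1 overlaps 7114 bases of Pdgfd on the other strand. It stood at 11.2 in Sham and 33.8 in TAC endothelial cells, and at 1.56 and 5.87 in cardiomyocytes.

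**Figure D3:**
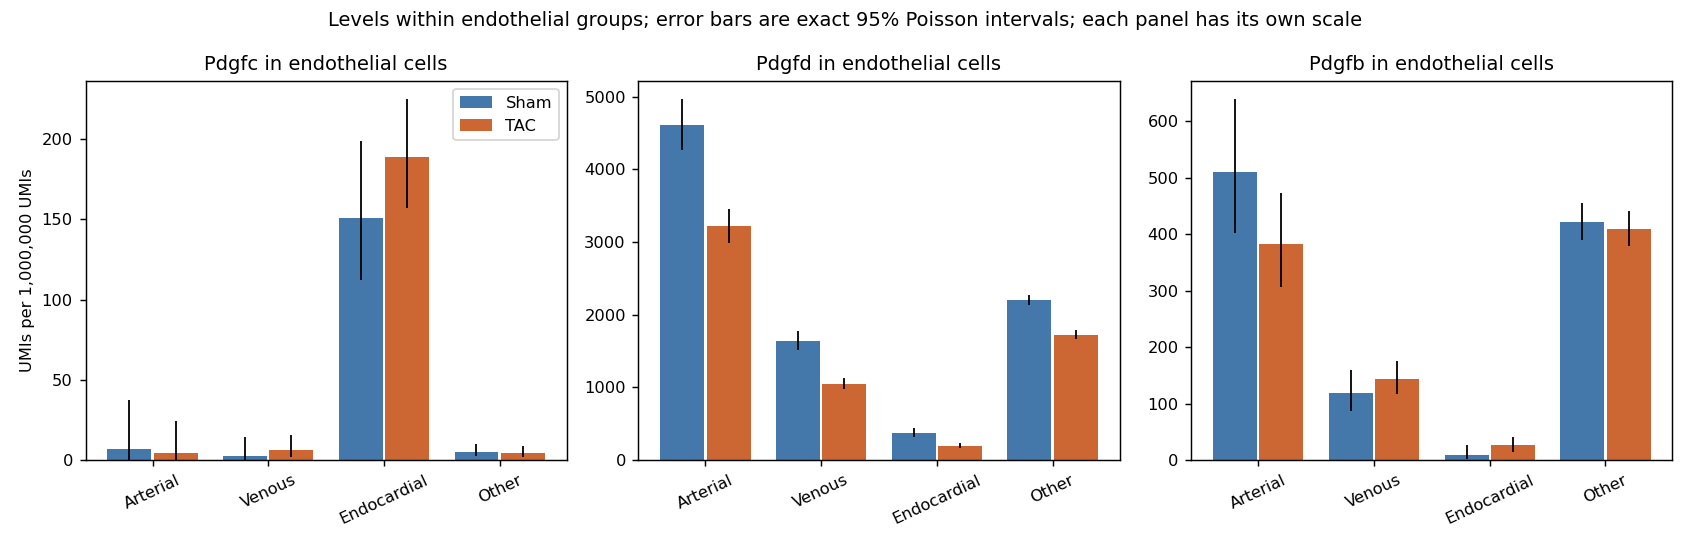
Levels (UMIs per 1000000, axes from 0) of Pdgfc, Pdgfd and Pdgfb in 4 endothelial groups, Sham in blue and TAC in orange, with exact 95% Poisson intervals. Pdgfd was lower in TAC in all 4 endothelial groups, and Pdgfc was almost confined to endocardial cells, where the intervals of the libraries overlap.

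**Figure D4:**
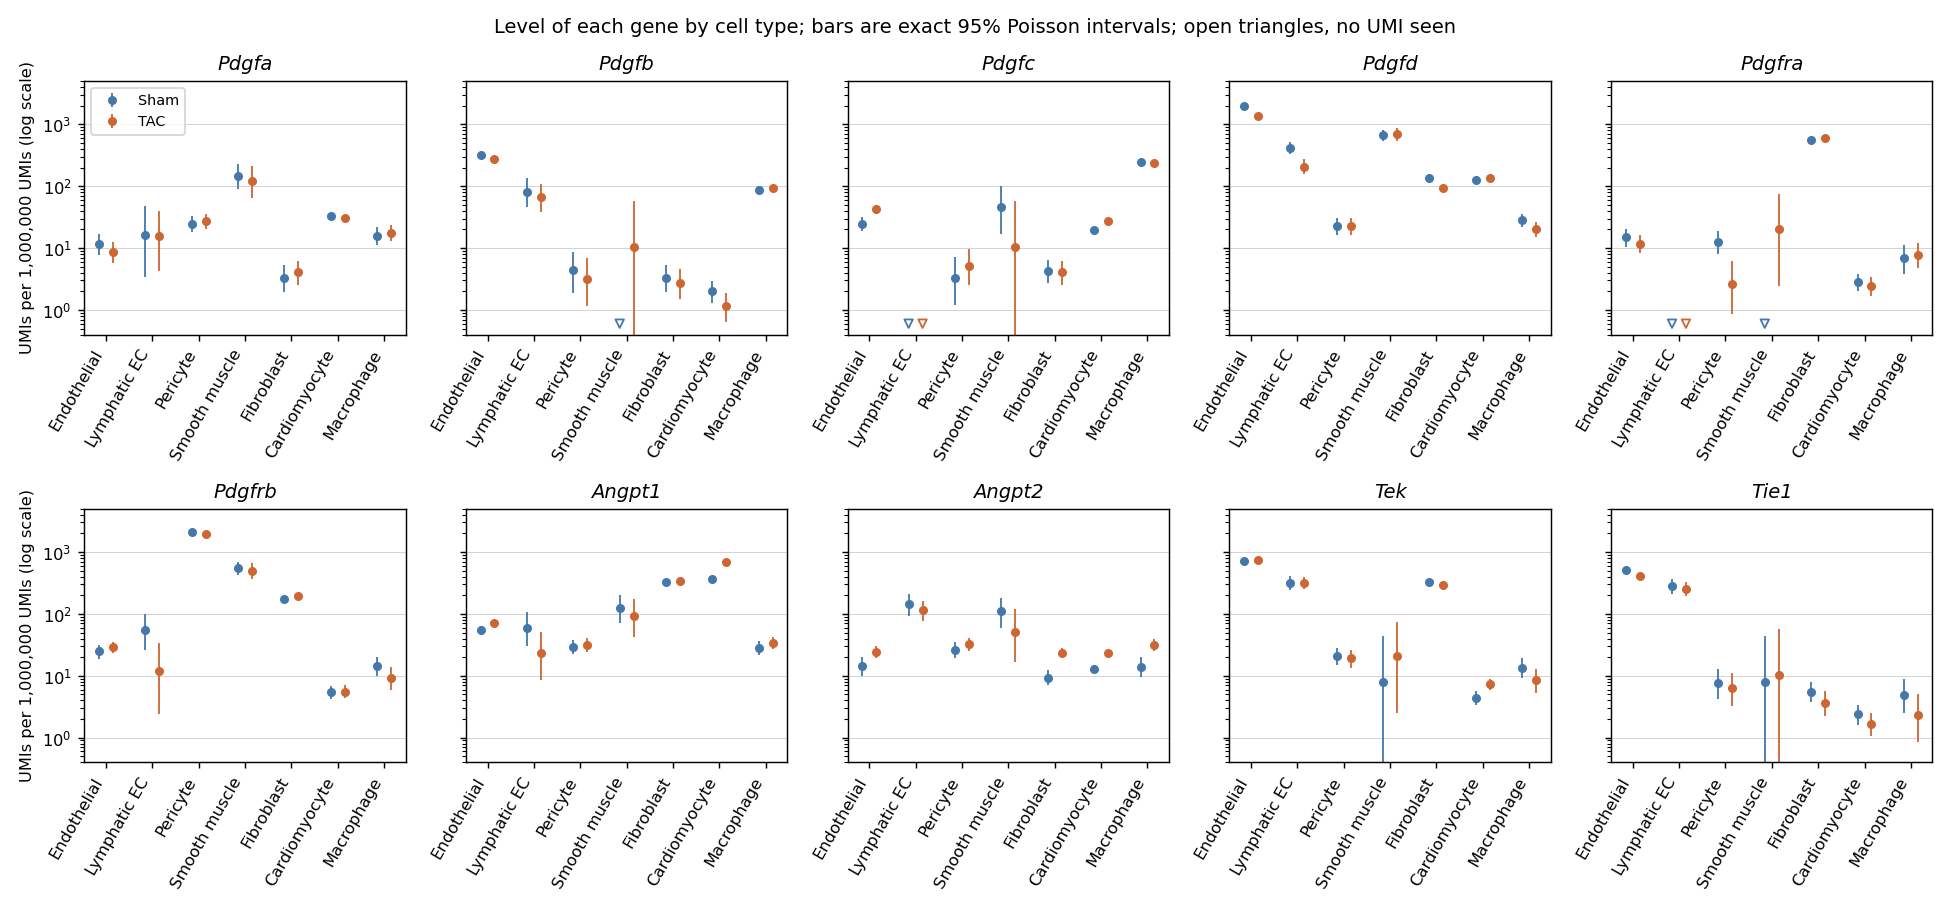
Level of each of the 10 genes (UMIs per 1000000, log scale) in 7 cell types, Sham in blue and TAC in orange, with exact 95% Poisson intervals; open triangles mark cell types with no UMI and carry no value. Pdgfrb was highest in pericytes (2143 and 1987), Pdgfra in fibroblasts (549 and 594), and Tek but not Tie1 had a second high level in fibroblasts.

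Pdgfra, the receptor for PDGF-A and PDGF-C on fibroblasts (chr5:75152292-75198215, plus strand), stood at 549 (529 to 569) in Sham and 594 (573 to 616) in TAC fibroblasts, a ratio of 1.08 (1.03 to 1.14), with 1363 of 2293 and 1367 of 2125 fibroblasts holding a UMI. No other large type reached 3% of that level, and lymphatic endothelial cells had 0 UMIs in both libraries, which at 3 counts allows a level of up to 16.4 and 11.7. Adventitial, activated and other fibroblasts differed little, between 494 and 631 in Sham and between 567 and 610 in TAC. The 1 pair called lower was Pdgfra in pericytes, with 23 UMIs in Sham (12.6) and 5 in TAC (2.60), a ratio of 0.207 (0.0616 to 0.558). These were 2.29% and 0.438% of the fibroblast level. The 8 fibroblast markers together stood at 418 and 503 in pericytes (1.20, 1.09 to 1.33), which was 10.6% and 9.03% of their fibroblast level. With called doublets kept the Pdgfra ratio in pericytes was 0.711 (0.485 to 1.04).

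Pdgfrb, the PDGF-B and PDGF-D receptor that marks mural cells, was highest in pericytes, at 2143 (2076 to 2211) in Sham and 1987 (1925 to 2051) in TAC. It was found in 974 of 1061 and 963 of 1042 pericytes, and the ratio was 0.927 (0.887 to 0.970). Smooth muscle had 547 and 492, the pericyte level being 3.92 times (3.09 to 5.04) and 4.04 times (3.04 to 5.49) as high, and fibroblasts had 175 and 194. Cardiomyocytes had 5.41 and 5.57. In the endothelium the level was 24.8 and 29.1, with 72.4 (24 UMIs) and 75.5 (50 UMIs) in endocardial cells against 18.7 and 20.9 in the other endothelial cells. Neither receptor was called changed in its main cell type.

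Angpt1, the activating ligand of Tek (chr15:42424723-42676977, minus strand), was found in cardiomyocytes and fibroblasts, and its cardiomyocyte level was the member value that differed most clearly between the libraries. Cardiomyocytes went from 366 (356 to 377; 4942 UMIs) in Sham to 690.5 (676 to 705; 9058 UMIs) in TAC, a ratio of 1.88 (1.82 to 1.95), and 1257 of 2511 and 1579 of 2395 cells held a UMI. Thinned to 1000 UMIs per cell, 22.4% of Sham and 35.0% of TAC cardiomyocytes held one. Fibroblasts stood at 323 (308 to 338) and 345 (329 to 361), a ratio of 1.07, so that cardiomyocytes had 1.13 times (1.07 to 1.20) the fibroblast level in Sham and 2.002 times (1.90 to 2.11) in TAC. Endothelial cells, which carry the receptor, had 54.6 and 70.4, and pericytes 29.5 and 31.8.

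Cardiomyocytes were not of 1 kind, and a cluster led by Pdzrn4 held 682 Sham and 1232 TAC cells. Angpt1 stood at 604 in that cluster in Sham and 869 in TAC, a ratio of 1.44 (1.37 to 1.503). With 1 mix of the cardiomyocyte clusters in both libraries the ratio over all cardiomyocytes was 1.55, beside 1.88 with the clusters as captured. The antisense gene Gm17473, which overlaps 737 bases of Angpt1, stood at 9.57 and 18.4 in cardiomyocytes. The 8 fibroblast markers stood at 72.4 and 105 in cardiomyocytes (1.45, 1.33 to 1.57), 1.84% and 1.88% of their fibroblast level. The 10 pericyte markers summed to 309 and 479.6 there (1.55), 3.64% and 5.03% of their pericyte level. Taken marker by marker, for those with at least 20 UMIs in pericytes, the highest share went from 19.8% to 56.2%. The median share went the other way, from 0.941% to 0.415%. The part of these markers in the Angpt1 difference was not tested. Cells called doublets, which entered none of these values, had an Angpt1 ratio of 1.83 (1.64 to 2.04).

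Within fibroblasts Angpt1 followed the subtypes. Adventitial fibroblasts (marked by Pi16 and Cd55) had 183 and 201, activated fibroblasts (marked by Postn and Cilp) 201 and 147, and the other fibroblasts 392 and 435, which was 2.14 times (1.80 to 2.55) and 2.16 times (1.91 to 2.45) the adventitial level. Adventitial cells were 11.9% of fibroblasts in Sham and 25.3% in TAC, and activated cells 18.5% and 6.40%. The activated group joins a subcluster led by Cilp, with 394 Sham and 79 TAC cells, and one with Ccl2, Mt1 and Mt2 among its leading genes, with 30 and 57 cells, so that its values in the 2 libraries come from different mixes. In the subcluster led by Cilp, Angpt1 stood at 210.01 and 163 (0.775, 0.538 to 1.09). With 1 mix of subclusters the fibroblast ratio was 1.17. In endocardial cells Angpt1 went from 39.2 (13 UMIs) to 90.6 (60 UMIs), a ratio of 2.31 (1.25 to 4.59). It was the highest of 7 endothelial subclusters with at least 20 UMIs, which ranged from 0.801, and the only one with an interval above 1, and endothelial cells as a whole gave 1.29 (1.04 to 1.61).

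Angpt2, the context-dependent antagonist (chr8:18690263-18741562, minus strand), was low in every large cell type and was called higher in 4 of the 5. It stood at 9.38 (51 UMIs) in Sham and 23.4 (121 UMIs) in TAC fibroblasts, a ratio of 2.49 (1.78 to 3.53). Macrophages had 14.04 and 31.9 (2.27, 1.49 to 3.56), cardiomyocytes 12.8 and 23.7 (1.86, 1.54 to 2.25) and endothelial cells 14.5 and 24.5 (1.69, 1.12 to 2.60). Pericytes had 26.2 and 32.3, a ratio of 1.23 that was within counting error. Lymphatic endothelial cells had 142 (26 UMIs) and 113 (29 UMIs), with 13 of the 26 Sham UMIs from 1 cell, and smooth muscle had 109 (14 UMIs) and 51.2 (5 UMIs). The lymphatic level was 1.30 times (0.655 to 2.69) the smooth muscle level in Sham and 2.21 times (0.848 to 7.33) in TAC, both within counting error.

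In TAC the levels of neighbouring large types could not be told apart, since pericytes to macrophages gave 1.012, macrophages to endothelial cells 1.30 (0.946 to 1.80) and cardiomyocytes to fibroblasts 1.02. No large cell type stood apart from all others in TAC. The 8 fibroblast markers gave TAC to Sham ratios of 1.28 in macrophages, 1.44 in endothelial cells and 1.45 in cardiomyocytes, beside 1.42 in fibroblasts themselves, so that as a share of their fibroblast level they went from 5.84% to 5.26%, from 8.32% to 8.45% and from 1.84% to 1.88%. Whether these UMIs came from the cells themselves or from RNA free in the suspension was not tested. Called doublets had a ratio of 1.63 (1.05 to 2.55). Angpt2 lies entirely inside Mcph1 on the opposite strand, an overlap of 51300 bases, and Mcph1 itself gave ratios between 0.803 and 1.16 in the 5 types.

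Tek, the angiopoietin receptor (chr4:94739289-94874976, plus strand), was divided between endothelial cells and fibroblasts. Endothelial cells stood at 719 (685 to 753) in Sham and 743 (714 to 773) in TAC, a ratio of 1.03, and fibroblasts at 323 (308 to 338) and 294 (279 to 309), a ratio of 0.911 (0.850 to 0.976). The endothelial level was thus only 2.23 times (2.08 to 2.38) and 2.53 times (2.37 to 2.70) that of fibroblasts, which in turn had 15.6 and 15.2 times the pericyte level. A Tek UMI was seen in 950 of 2293 and 903 of 2125 fibroblasts, and after thinning to 1000 UMIs in 24.8% and 23.0% of fibroblasts against 46.8% and 50.2% of endothelial cells and 0.404% and 1.006% of cardiomyocytes. Adventitial fibroblasts had the highest fibroblast level, 494 and 399, the other fibroblasts 318 and 262, and activated fibroblasts 209 and 164. Activated cells had 0.424 times (0.359 to 0.501) and 0.411 times (0.315 to 0.530) the adventitial level. The ratio of TAC to Sham was below 1 in 12 of 13 fibroblast subclusters, 2 of them outside counting error, against 2.73 (1.04 to 9.04; 5 and 28 UMIs) in the activated subcluster with Ccl2, Mt1 and Mt2, and 0.831 with 1 mix of subclusters.

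**Figure D5:**
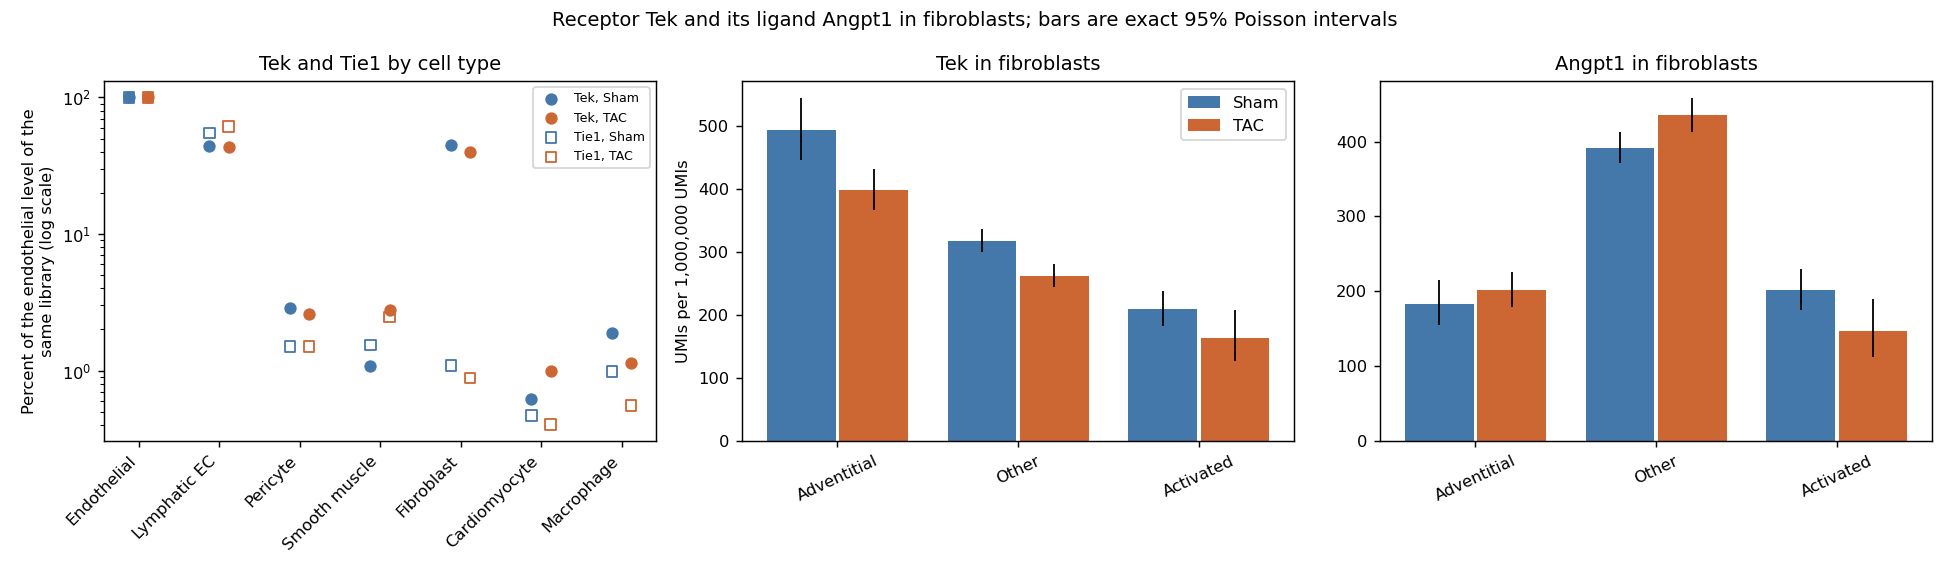
Left, Tek (filled circles) and Tie1 (open squares) in each cell type as percent of their endothelial level in the same library (log scale); middle and right, levels of Tek and Angpt1 in fibroblast groups (UMIs per 1000000) with exact 95% Poisson intervals, Sham in blue and TAC in orange. In fibroblasts Tek stood at 44.9% and 39.6% of its endothelial level and Tie1 at 1.09% and 0.882%.

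Tie1, the partner receptor of Tek (chr4:118471191-118490061, minus strand), did not share the fibroblast level. Endothelial cells stood at 507 (479 to 536) in Sham and 416 (394 to 439) in TAC, lymphatic endothelial cells at 279 and 254, and fibroblasts at 5.52 (30 UMIs) and 3.67 (19 UMIs). The endothelial level was 91.9 times (64.1 to 137) and 113 times (72.3 to 189) that of fibroblasts, against the ratios of little over 2 given above for Tek. The 10 endothelial markers, Tek and Tie1 not among them, summed to 1.90% and 1.78% of their endothelial level in fibroblasts. The endothelial ratio of TAC to Sham was 0.820 (0.758 to 0.886), below 1 in 10 of 10 subclusters and outside counting error in 1 of them. Endocardial cells had 0.505 times (0.405 to 0.624) and 0.563 times (0.477 to 0.661) the Tie1 level of the other endothelial cells but 1.24 times (1.08 to 1.42) and 1.22 times (1.10 to 1.35) their Tek level.

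In cardiomyocytes Tek was called higher, from 4.45 (60 UMIs) to 7.39 (97 UMIs), a ratio of 1.66 (1.19 to 2.33). That is 0.619% and 0.995% of the endothelial level, in a range where RNA from other cells was also found: the 10 endothelial markers stood at 0.395% and 0.422% of their own level in cardiomyocytes (ratio 1.17), and Tie1 at 0.468% and 0.403%. With types assigned cell by cell from marker counts rather than by cluster, the direction turned, to 0.764 (0.701 to 0.833), and cardiomyocytes then held 35.3% of the Sham and 21.3% of the TAC Tek UMIs.

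Further genes of the 2 pathways, 29 in all, gave 145 pairs with the 5 types, of which 126 had enough UMIs, 8 were called higher and 8 lower, and their median log2 ratio was -0.04. Over all genes 6.12% to 12.1% were called higher and 3.75% to 7.13% lower in the 5 types, and the counts of the 3 lists below are to be read against these shares. Of the proteases and binding partners of PDGFs, 4 of 29 pairs were called higher and 1 lower. In endothelial cells Plat, which encodes the tissue plasminogen activator that cleaves PDGF-C, went from 32.7 to 21.7 (0.664, 0.474 to 0.928), and Pcsk5, which encodes a proprotein convertase, from 52.9 to 99.8 (1.89, 1.53 to 2.33). Sparc, which encodes a matrix protein that binds PDGF-B, went from 119 to 209 in fibroblasts (1.75, 1.59 to 1.93). In cardiomyocytes Nrp1, which encodes a co-receptor, went from 314 to 588 (1.87, 1.80 to 1.94) and Pcsk5 from 5.41 to 9.83.

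Among the signal transducers and phosphatases 0 of 55 pairs were called higher and 4 lower. Pik3r1, which encodes the regulatory subunit of phosphoinositide 3-kinase, went from 345 to 210 in fibroblasts (0.607, 0.563 to 0.654) and from 1076 to 632 in cardiomyocytes (0.587, 0.572 to 0.604). Ptpn11, which encodes the phosphatase SHP2, went from 262 to 148 in cardiomyocytes (0.564), and Shc1, which encodes an adaptor, from 38.9 to 24.996 in macrophages (0.642).

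On the Tie side 4 of 42 pairs were called higher and 3 lower. Foxo1, a transcription factor held in check by Tek signalling, went from 356 to 219 in fibroblasts (0.615, 0.571 to 0.662) and from 127 to 71.5 in cardiomyocytes (0.563, 0.520 to 0.610), and stood at 217 and 221 in endothelial cells (1.02, 0.907 to 1.14). Klf2, a flow-responsive transcription factor, went from 149 to 231 in endothelial cells (1.55, 1.37 to 1.77) and from 2.002 to 4.19 in cardiomyocytes. Grb14, which encodes an adaptor of Tek, went from 25.9 to 44.2 in fibroblasts (1.70), and Itga5, which encodes an integrin subunit, from 50.3 to 78.8 in macrophages (1.57). Ptprb, the phosphatase that dephosphorylates Tek, stood at 1264 and 1243 in endothelial cells (0.983, 0.938 to 1.03) and was called lower in pericytes, with 30 and 15 UMIs (0.477). Svep1, which encodes a matrix protein that binds Tie1, stood at 452 and 363 in fibroblasts (0.803, 0.756 to 0.853) and at 8.27 and 4.34 in endothelial cells.

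The genes whose levels were most like each member's were found by Pearson's r of log2(level + 1) over 12 points, 6 cell types in the 2 libraries, among 15606 genes with at least 100 UMIs; the points share libraries and r is a description. Tie1 was most like the endothelial genes Efnb2 (0.992), Emcn (0.991) and Erg (0.991), and Tek like Csgalnact1 (0.991), Dnm3 (0.989) and Fmo1 (0.988). Pdgfra was most like Ssc5d (0.992), Medag (0.986) and Gpm6b (0.983), and Pdgfrb like Cyp7b1 (0.979), Dtx3 (0.977) and Aspn (0.973). For the ligands, Pdgfb was most like Prkch (0.978), Pik3r6 (0.972) and Tal1 (0.970), Pdgfc like Sap30 (0.985), Cds1 (0.977) and Zfp268 (0.967), and Pdgfd like Ptprm (0.981), Mgll (0.974) and Afdn (0.969). Angpt1 was most like its antisense neighbour Gm17473 (0.966), Pdzrn3 (0.964) and Gm26911 (0.964). Weaker likeness was found for Pdgfa, with Gm9821 (0.904), Inpp4b (0.900) and Zmynd8 (0.892), and for Angpt2, with Nme1 (0.942), Ccl21a (0.918) and Prkcz (0.914).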

How the data were processed

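Mouse hearts were dissociated and sequenced with the 10x Genomics 3′ chemistry, version 3 per the labels and version 2 per the study's methods. The deposited values are raw UMI counts per gene and cell barcode; the authors made them with Cell Ranger, 7.1.0 per the submitters' processing notes, while the methods name an earlier release. The genome build, the use of intronic reads and strand, and the choice of barcodes are not given in the sources used here. The methods give Seurat for the authors' later analysis, and no cell annotation was used here.

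Cells with at least 200 detected genes were kept, doublets were called with Scrublet in scanpy 1.11.5 in each library (459 and 479 cells, 4.62% and 4.82%) and removed, and both libraries were clustered together (counts per 10000, 2000 variable genes, 30 components, 15 neighbours, Leiden resolution 1, seed 1; igraph 0.11.9), leaving out the members, their partner genes and mitochondrial genes. Clusters were named from at least 3 markers of a fixed list; 1 cluster of 50 and 11 cells led by cell-cycle and dendritic genes stayed unnamed. Endothelial cells and fibroblasts were clustered again by themselves.

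Raw UMIs were summed per library and type. Intervals are Poisson for levels, Clopper-Pearson for shares and conditional binomial for ratios (scipy 1.17.1). With 1 library in each condition no test across samples was run, and the scripts were tested on simulated data. For shares of cells each cell was thinned to 1000 UMIs in 1 seeded draw, and shallower cells were left out (813 of 1901 Sham and 726 of 2249 TAC endothelial cells, for example). Gene positions are from GENCODE M21 on GRCm38, which matched 52081 of 55357 gene identifiers, and promoter windows are from RefSeq.

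The members, the lists and the settings were chosen with earlier results of these data known. The text names all 10 members, the partner genes called in 1 of the 5 large types (at most 4 in each direction and type) with Ptprb, Svep1, Plat and Foxo1 in any case, and the 3 genes most like each member. Alternatives changed the filters, doublets, clustering, typing, scaling, thresholds and thinning, and 1 mix of subclusters was added after seeing the data. Values of 1 cardiomyocyte cluster are not reported here.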

Additional observations from a re-analysis of the deposited data

Results flagged for a closer look

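Pdgfd was called in opposite directions in a pair of small groups, a difference that was not tested. In epicardial or mesothelial cells it went from 302 (12 UMIs in 20 cells) in Sham to 943 (59 UMIs in 27 cells) in TAC, a ratio of 3.12, and 15 of the 59 UMIs came from 1 cell. In lymphatic endothelial cells it went from 421 (77 UMIs in 85 cells) to 207 (53 UMIs in 110 cells), a ratio of 0.492.

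Cells called doublets, which entered no comparison, gave 2 ratios past the same threshold. Angpt1 stood at 219 and 401 in them, a ratio of 1.83 (1.64 to 2.04), and Angpt2 at 15.4 and 25.1, a ratio of 1.63 (1.05 to 2.55). Both genes were also called higher in cardiomyocytes of the same 2 libraries, so the doublets are not a separate observation.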

How the results depend on the processing

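With 7 pairs called higher and 1 lower as reported, the count higher was 2 at a fold of 2 (Angpt2 in fibroblasts and macrophages), and lay between 5 and 8 under the other alternatives. The count lower was 0 with doublets kept, 0 at a minimum of 50 UMIs, 3 with each cell typed by its own markers and 2 with each cell weighted equally. The share of all genes called was computed only for the settings as reported. Whether the counts under the alternatives differ from what all genes give there was therefore not tested. Of the pairs called higher, Angpt1 in cardiomyocytes ranged from 1.86 to 1.91 and Angpt2 in fibroblasts from 2.33 to 2.51 over 13 alternatives. With 1 mix of subclusters, added after seeing the data, Angpt1 in cardiomyocytes was 1.55 and Pdgfc in endothelial cells 1.23. Tek in cardiomyocytes was 0.764 with each cell typed by its own markers, 1.34 with doublets kept and 1.49 with each cell weighted equally, and Angpt2 in endothelial cells was 1.52 (0.975 to 2.42) with own-marker typing; the cause was not tested. Endothelial Pdgfd, not called, ranged from 0.677 to 0.722. The fibroblast share of Tek UMIs in Sham ranged from 24.4% to 48.6%, lowest with own-marker typing. With own-marker typing 77 shares of UMIs moved beyond counting error and 23 did not, and with doublets kept 51 and 49. Lowest Sham shares over 11 alternatives were 48.2% for Pdgfra in fibroblasts, 46.1% for Pdgfrb in pericytes and 65.5% for Tie1 in endothelial cells. Cardiomyocytes held up to 45.5%, 40.1% and 28.5% of these. Pdgfc in TAC macrophages fell to 44.8%. Pdgfa and Angpt1 in Sham cardiomyocytes stayed at or above 70.5% and 68.9%. Shares of cells with a UMI moved beyond counting error in 212 of 300 values when thinning changed, since they depend on depth.

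No paired analysis was possible because the study holds a single Sham and a single TAC library. Leaving out a library was not possible for the same reason. Intervals cover counting error, not the spread between mice or operations, and library preparation cannot be told apart from condition. Genes at a few UMIs, such as Tie1 and Pdgfb in fibroblasts and cardiomyocytes, are within the range of RNA from other cells.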
